A study of Mus musculus with 13 samples.

Results

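The H3K27me3 peak list of mouse embryonic fibroblasts (MEFs) with Myf6 and 3 compounds held 32130 peaks on chromosomes 1 to 19, of 175499 peaks in the 13 lists of the series. All its autosomal peaks were taken, and they were set against the 2 HA lists (37811 and 31504 peaks, replicates 1 and 2) and the 2 IgG lists (903 and 1648 peaks) of the same treatment. The list came from 1 library, so its values carry no replicate error and no test was possible between it and the others. Intervals below are exact Clopper-Pearson or order-statistic intervals at 95% and cover counting error only.

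H3K27me3 is trimethylated lysine 27 of histone H3. It is written by Polycomb repressive complex 2, is read by Polycomb repressive complex 1 and is known both as focal signal at CpG islands and as broad domains over silent developmental genes. Myf6 (also called MRF4) is a basic helix-loop-helix factor of the myogenic family, which binds E-boxes and takes part in muscle differentiation. In CUT&RUN an antibody brings a nuclease to its target, which releases the DNA fragments around it; an antibody against the HA tag reports the tagged factor, and a control IgG reports cutting that needs no target.

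All 5 libraries came from MEFs of a strain that combines Pax7-CreERT2 and Rosa26-LSL-tdTomato with CAG-rtTA3, the transactivator that doxycycline switches on. These cells carried a lentiviral construct for doxycycline-inducible Myf6 with a triple HA tag, so the factor was overexpressed and its binding was read through the tag. They were kept for 24 h in the medium named iMPC, with 2 µg/mL doxycycline (Myf6 on), 5 µM Forskolin (an activator of adenylyl cyclase), 5 µM RepSox (an inhibitor of the TGF-β type I receptor) and 3 µM CHIR99021 (a GSK3 inhibitor). The 13 libraries of the series include no uninduced or untreated H3K27me3 library, so no effect of Myf6 or of the compounds on the mark can be read from these lists. Per the labels' protocols, nuclei of 1 sample were shared out between its HA and its IgG tube, and 1 sample of this treatment also filled the H3K27me3 tube, the positive control of the assay. The H3K27me3 library is titled as replicate 1, while its library name has the prefix of HA and IgG replicate 2. The labels do not say whether the replicates were separate cultures, so the spread between them may be technical.

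Depth differed between the libraries. It was recovered from the lists as the mean number of fragments per 10 kb, and was 54.3 in the H3K27me3 library, 61.9 and 40.9 in the HA libraries and 19.1 and 8.25 in the IgG libraries. The HA lists were 41.9 times (replicate 1) and 19.1 times (replicate 2) as long as the IgG list of the same number. The mean log2 difference was 4.82, and the exact two-sided permutation p was 0.333, the smallest that 2 against 2 libraries allow. With the HA lists scaled to IgG depth, 8055 and 2591 HA peaks were kept, against 903 and 1648 IgG peaks, and the mean log2 difference was 1.90. After scaling, the excess of HA over IgG peaks was much smaller in replicate 2 than in replicate 1. The label of the H3K27me3 list was not checked at Polycomb target genes, because no annotation of its genome build was used here; its structure is described below.

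The H3K27me3 list was the only one of the 5 with many long peaks, but most of its peaks were short. Peaks had a median width of 546 bp (interval 534 to 556) in the H3K27me3 list, 339 and 316 bp in the HA lists and 144 and 166 bp in the IgG lists. The upper quartile was 1234 bp for H3K27me3, 476 and 457 bp for HA and 199 and 208 bp for IgG. The narrowest peak of a list is 1 fragment long, and was 165 bp for H3K27me3, 164 and 172 bp for HA and 104 and 166 bp for IgG. Peaks of at least 1 kb made up 32.5% of the H3K27me3 list (10443 peaks), 1.45 and 1.04% of the HA lists (547 and 327) and 1.11 and 0.607% of the IgG lists (10 in each). At 2 kb or more the counts were 1870 for H3K27me3, 5 and 2 for HA and 3 and 4 for IgG. The difference in width between mark and factor was larger among strong peaks. With −log10 q of at least 5 the median was 899 bp for H3K27me3 and 435 and 422 bp for HA, and peaks of 1 kb or more made up 45.6% of the H3K27me3 list and 2.64 and 2.30% of the HA lists.

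**Figure D1:**
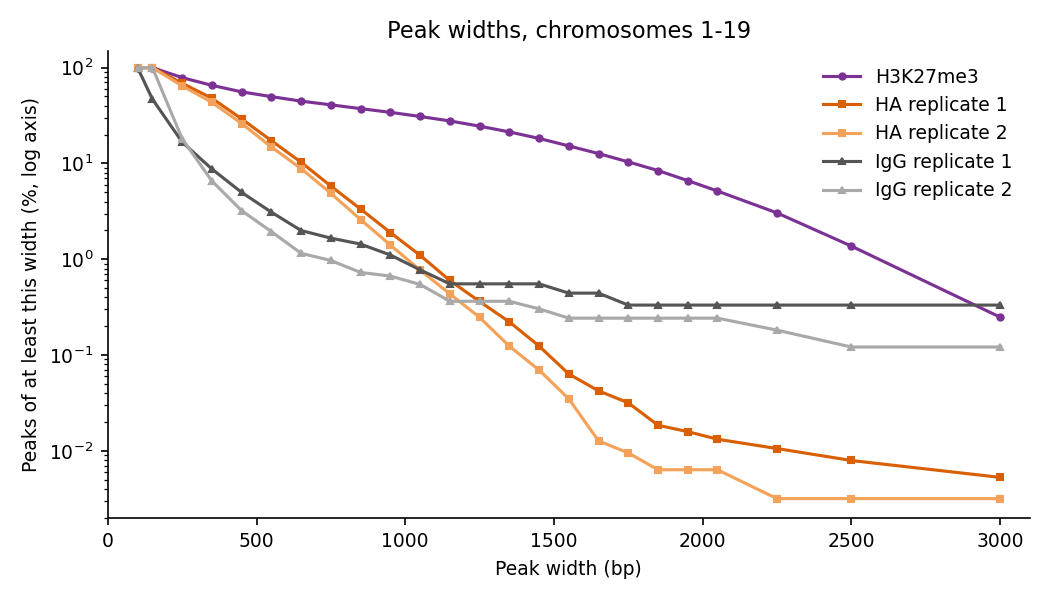
Share of peaks (%, log axis) at least as wide as the value on the x axis (bp), for the H3K27me3 list, the 2 HA lists and the 2 IgG lists, chromosomes 1 to 19; each point is the lower edge of a width bin and there are no error bars because each line is 1 library. The H3K27me3 line stays above both HA lines from 250 bp on, with 32.5% of its peaks at 1 kb or more against 1.45 and 1.04% of the HA peaks.

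The width distribution of the H3K27me3 peaks was steep at first and then level. The bin from 150 to 250 bp held 21.4% of the peaks and the bin from 350 to 450 bp 9.48%. From 850 to 1550 bp each bin of 100 bp held between 3.01 and 3.26%, and above 2 kb the shares were smaller again. For description the list was divided at 1 kb, a limit chosen after the widths were seen; 6.28% of the peaks lay within 100 bp of it. The 10443 long peaks held 65.2% of the 25.7 Mb covered by the list. Their median summit pileup, the number of fragments stacked over the summit, was 63, against 11 for the 21687 short peaks. The 10 kb window at a long peak held a median of 9.08 times the library mean, and at a short peak 1.16 times. The window includes the peak's own fragments, and the ratio cannot fall below 1. This ratio went up with width in every bin, to 16.0 times the mean at peaks of 2 kb or more. The part of the peak's own fragments in this rise was not tested. HA peaks had medians of 1.63 and 1.81 times their own library means and IgG peaks 1.63 and 1.21 times. Short H3K27me3 peaks had a median width of 342 bp, and the median pileups of the HA lists were 13 and 11. The limit of 1 kb fixes the likeness of short peaks to HA peaks in width, as few HA peaks reach it. Pileup went up with width too, from a median of 9 fragments under 400 bp to 77 at 2 kb or more.

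As deposited, neighbouring H3K27me3 peaks had a median gap near that of HA peaks, and more very short gaps. The median gap was 21.6 kb (interval 21.2 to 22.0) between H3K27me3 peaks, 22.9 and 28.5 kb between HA peaks and 1458 and 998 kb between IgG peaks. With −log10 q of at least 5 this likeness was lost, with 30.7 kb for H3K27me3 and 44.1 and 69.6 kb for HA. With lists of equal length the median gap was 22.1 kb for H3K27me3 and 28.4 and 28.5 kb for HA. Gaps of up to 0.5 kb made up 10.0% of the gaps of the H3K27me3 list, 4.22 and 4.45% of the HA gaps and 5.77 and 1.41% of the IgG gaps. The shortest gap was 151 bp in the H3K27me3 and both HA lists, and 156 and 153 bp in the IgG lists. Gaps of 1 to 5 kb were rare in the mark and factor lists alike. Per kb of gap length there were 435 such gaps in the H3K27me3 list, against 847 of 5 to 10 kb. In the HA lists there were 664 and 344 of 1 to 5 kb, against 1005 and 714 of 5 to 10 kb. The expected pileups show that the background of each list was taken from the library's own 10 kb windows, so the fragments of a peak count in the background of its neighbours. The part of this in the rare gaps was not tested.

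**Figure D2:**
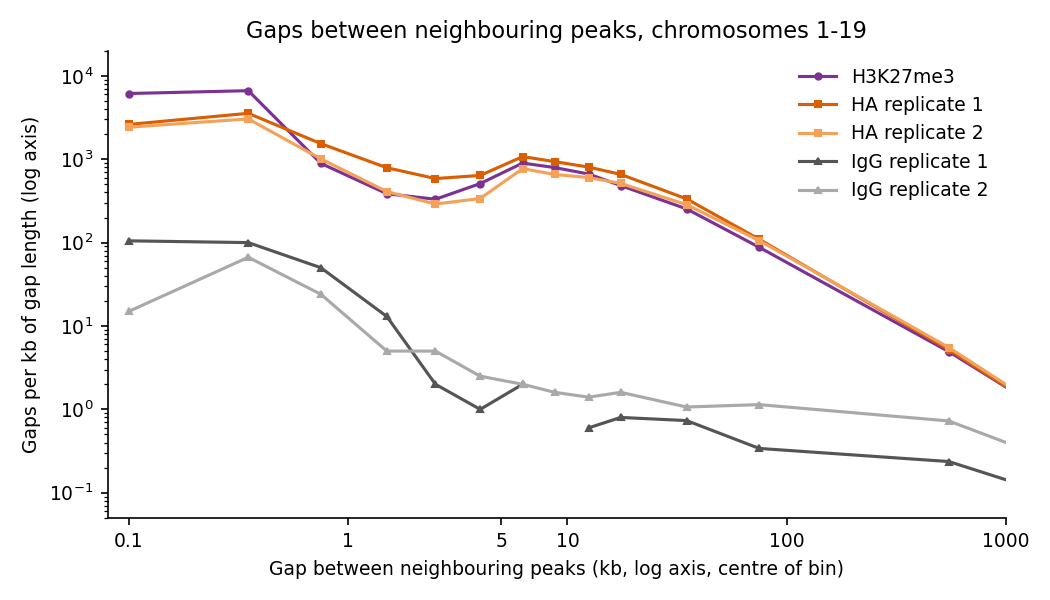
Number of gaps between neighbouring peaks per kb of gap length (log axis) against gap length (kb, log axis, centre of each bin) in the H3K27me3, HA and IgG lists, chromosomes 1 to 19; 1 line per library. The H3K27me3 and HA lines dip between 1 and 5 kb and run together above 10 kb, and the H3K27me3 line is highest at gaps of up to 0.5 kb.

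Few H3K27me3 peaks joined into long domains. Joined across gaps of up to 3 kb, the list formed 27747 domains, of which 86.6% were a single peak, 79 reached 5 kb and 4 reached 10 kb. The 4 held 0.0765% of the covered bases. The longest domain was 33.1 kb in the H3K27me3 list and 38.2 and 20.4 kb in the HA lists. In the IgG lists it was 38.2 and 9.43 kb. H3K27me3 thus did not stand apart by the length of its longest domain, but that length does not set factor or mark apart from the control. The longest domains of HA replicate 1 and IgG replicate 1 held 25 and 36 peaks. Each was the only domain of 10 kb or more in its list. The longest H3K27me3 domain held no IgG peak. At this joining distance the H3K27me3 list had more domains of 5 kb or more. These numbered 79 for H3K27me3, 19 and 13 for HA and 2 and 4 for IgG. The lists hold narrow peaks called against a background of 10 kb windows, and the part of this in the small number of long domains was not tested. The count rests on the joining distance. There was no domain of 10 kb or more when gaps of up to 1 kb were joined, and there were 1819 when gaps of up to 10 kb were joined, against 1614 and 995 in the HA lists and 3 and 1 in the IgG lists. The order of mark and factor rests on it too. Joined across 10 kb, domains of 5 kb or more numbered 3775 for H3K27me3 and 4536 and 3285 for HA. Joined across 25 kb, a distance added after seeing the data, domains of 10 kb or more numbered 4816 for H3K27me3 and 6295 and 5199 for HA.

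The 4 domains differed in what else they held. On chromosome 4 (chr4:88691326-88724390, GRCm39) 12 H3K27me3 peaks covered 9096 bp of 33.1 kb, with 6 peaks in each HA list and no IgG peak. On chromosome 13 (chr13:22091419-22103944) 6 H3K27me3 peaks spread over 12.5 kb, with no HA or IgG peak. On chromosome 17 (chr17:47812387-47822568) 4 peaks spread over 10.2 kb, with 2 peaks in each HA list and no IgG peak. On chromosome 9 (chr9:3012782-3038250), near the chromosome's start, 15 H3K27me3 peaks stood beside 17 and 16 HA peaks and 25 and 14 IgG peaks, so this domain was found with every antibody. Among the 79 domains of 5 kb or more, 57 (72.2%, interval 60.9 to 81.7) held no region of both HA lists. Over all domains, whose median length was only 745 bp, this share was 76.8%. An IgG peak was held by 7 of the 79 (8.86%, interval 3.64 to 17.4), against 2.58% of all domains. The next 6 by length were 7.44 to 9.71 kb long. The 2 with no peak in either HA list had 5 H3K27me3 peaks each, on chromosome 5 (chr5:142799388-142806933) and chromosome 3 (chr3:143904226-143911662).

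H3K27me3 density differed between chromosomes more than HA density did. It was highest on chromosome 11, with 21.4 peaks per Mb (interval 20.6 to 22.2), followed by chromosome 19 with 17.8 and chromosome 17 with 16.6. It was lowest on chromosome 14, with 9.73 (9.18 to 10.3), followed by chromosome 1 with 10.6 and chromosome 16 with 10.8. Chromosomes 11 and 14 were also at the ends of both HA lists, with 19.7 and 15.8 HA peaks per Mb on chromosome 11 and 13.0 and 10.4 on chromosome 14. The ratio of these 2 chromosomes was 2.20 for H3K27me3 (interval 2.05 to 2.36) and 1.51 in each HA list. The SD over the 19 chromosomes was 20.7% of the mean for H3K27me3, 10.8 and 10.7% for HA and 25.9 and 16.0% for IgG, whose lists are short. The mark exceeded the mean of the HA lists most on chromosome 11 (1.21 times) and chromosome 7 (1.12 times), and was lowest against it on chromosome 18 (0.724 times). Rank correlations of density over the 19 chromosomes were 0.61 and 0.51 between H3K27me3 and HA, against 0.91 between the HA lists; chromosomes share gene content, mappability and depth, so these are descriptions. Peaks of 1 kb or more made up 29.3% (chromosome 13) to 35.1% (chromosome 7) of the H3K27me3 peaks of a chromosome, a narrow range.

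**Figure D3:**
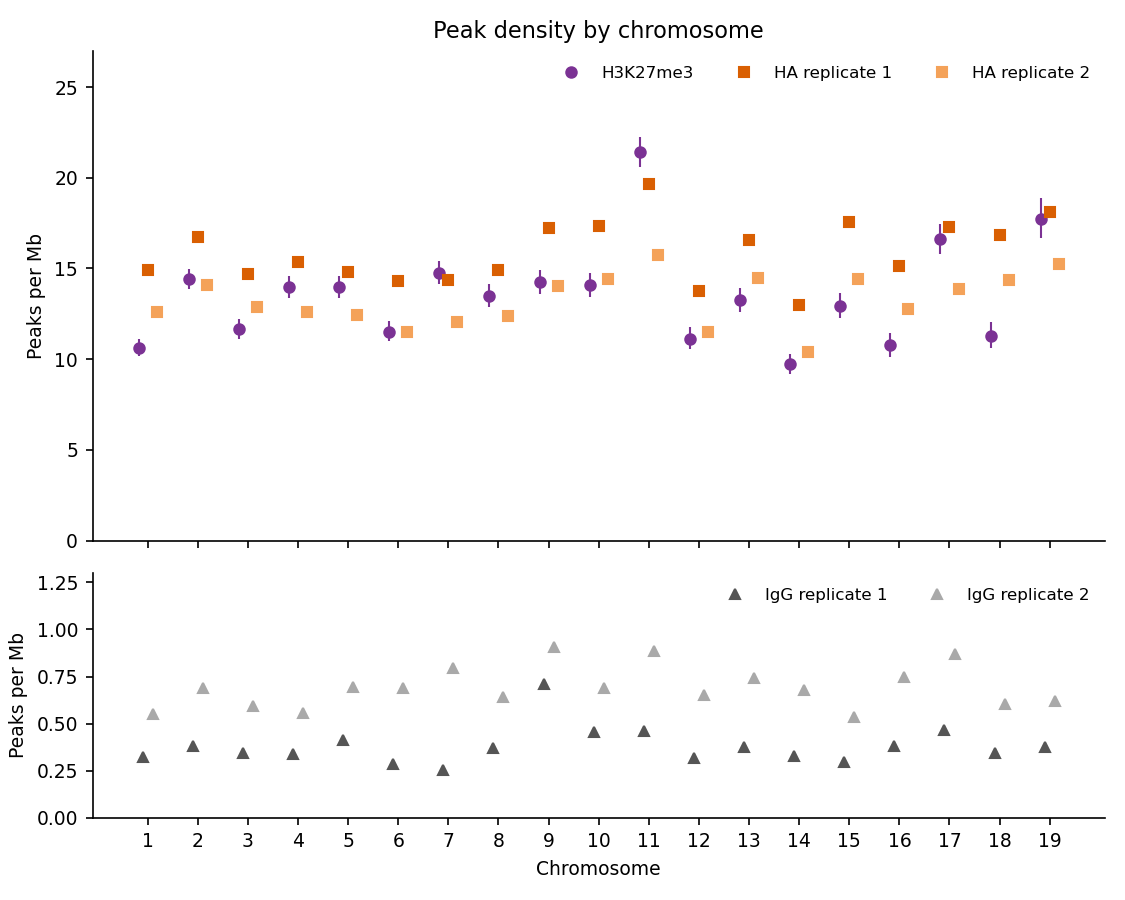
Peaks per Mb on each of chromosomes 1 to 19 in the H3K27me3 and HA lists (upper panel; bars on the H3K27me3 points are 95% Poisson intervals) and in the IgG lists (lower panel); each point is 1 library. H3K27me3 runs from 9.73 on chromosome 14 to 21.4 on chromosome 11, a wider range than the HA lists.

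On a finer scale H3K27me3 was also more concentrated than HA. In 2469 windows of 1 Mb, 122 held 40 or more H3K27me3 peaks, against 81 and 15 for HA, although the median window held 9 H3K27me3 peaks against 14 and 12 HA peaks. The densest decile of the windows held 33.0% of the H3K27me3 peaks, and 24.96 and 24.7% of the HA peaks. Windows without a peak numbered 287 for H3K27me3 and 260 and 287 for HA. The fullest windows had 83 H3K27me3 peaks each. On chromosome 11 (chr11:102000001-103000000) there were 44 and 39 HA peaks and 0 and 2 IgG peaks beside them, and on chromosome 19 (chr19:5000001-6000000) 39 and 36 HA peaks and 0 and 2 IgG peaks. On chromosome 10 (chr10:80000001-81000000) there were 38 and 35 HA peaks and 5 and 3 IgG peaks. That window lies within the longest run of H3K27me3 peaks with no gap over 50 kb, which spanned 2.17 Mb with 188 peaks (chr10:79368601-81541446). Window counts of H3K27me3 and HA went together, with rank correlations of 0.82 and 0.80, against 0.94 between the HA lists.

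About 1 H3K27me3 peak in 3 met a peak of a given HA list, 42.5% met a peak of at least 1 of the 2, and few met a peak of the much shorter IgG lists. The share of H3K27me3 peaks that shared at least 1 bp with a peak was 32.2% for HA replicate 1 (10344 peaks), 30.9% for HA replicate 2 (9923 peaks), 1.57% for IgG replicate 1 (506) and 1.55% for IgG replicate 2 (499). Both HA lists had a peak at 20.6% of the H3K27me3 peaks (6613, interval 20.1 to 21.0), 1 of them at 11.6 and 10.3% (replicates 1 and 2) and neither at 57.5%. No other list had a peak at 57.2%, both HA lists and no IgG list had one at 19.2%, and all 4 other lists had one at 0.766%. Where all lists were limited to −log10 q of 5 or more, the share at both HA lists was 9.40%. In covered bases, 11.4 and 10.9% of the H3K27me3 list lay in HA peaks, which covered 0.602 and 0.478% of the spanned chromosome length. IgG peaks held 0.443 and 0.507% of the H3K27me3 bases and covered 0.00743 and 0.0148% of the length.

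Read from the other side, H3K27me3 peaks lay at a part of the HA peaks and at nearly all of the 100 strongest IgG peaks. The share of peaks at an H3K27me3 peak was 27.8 and 32.2% in the HA lists, and 57.4 and 30.3% in the IgG lists. These means of 30.02 ± 3.11% for HA and 43.9 ± 19.1% for IgG (SD, n = 2 each) did not separate, since the share of IgG replicate 2 lies between the HA values (exact permutation test, two-sided, p = 0.667, smallest possible 0.333). As a yardstick, the HA lists met each other at 48.9% of the replicate 1 peaks and 59.3% of the replicate 2 peaks. Regions found in both HA lists numbered 18261 and lay at an H3K27me3 peak in 35.9% of cases (6563, interval 35.2 to 36.6), against 20.9 and 29% of the regions of replicate 1 or 2 alone. Where a region of both HA lists also had an IgG peak (566 regions), the share was 78.1%, and without one (17695 regions) it was 34.6%. Where all lists were limited to −log10 q of 10 or more, 15.1% of the regions of both HA lists lay at an H3K27me3 peak. Of the 100 strongest IgG peaks, 99 and 100 were at an H3K27me3 peak (replicates 1 and 2), and of the IgG peaks stronger than the median of their list 65.2 and 42.5% were. Regions of both IgG lists (378) had an H3K27me3 peak in 71.7% of cases and a peak of either HA list in 89.7%, while regions of 1 IgG list (1780) had an H3K27me3 peak in 26.3%. Among the 100 strongest, HA replicate 1 had a peak at 99 of the 100 in both IgG lists and HA replicate 2 at 98 and 99.

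The overlap with HA varied little with the strength of the H3K27me3 peak. In deciles of the list by −log10 p, from the weakest to the strongest, the share at HA replicate 1 was 28.2% in the first, 28.9% in the sixth and 36.4% in the last. For HA replicate 2 it was 28.0, 28.3 and 37.6%. The median width of the H3K27me3 peaks in these deciles was 245, 607 and 1381 bp, and a wider peak can meet more peaks. Overlap per base was not taken by strength. The share at an IgG peak was 0.342 and 0.436% in the weakest decile and 3.24 and 2.89% in the strongest. Between the HA lists strength mattered far more. HA replicate 1 peaks were at a replicate 2 peak in 21.4% of the weakest decile and 92.6% of the strongest, whereas they were at an H3K27me3 peak in 25.6 and 33.2%. For HA replicate 2 the shares at the mark were 27.4 and 39.99%. Over H3K27me3 peaks with a peak in an HA list, the strengths of mark and factor were nearly unrelated, with rank correlations between −0.07 and −0.03 in 3354 to 6703 peaks, against 0.50 over 18486 pairs of HA peaks. With IgG peaks they were 0.46 and 0.57 over short H3K27me3 peaks (323 and 340 peaks), and −0.15 and −0.05 over long ones (183 and 159 peaks).

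Among stronger HA regions, short H3K27me3 peaks were more frequent and long ones less frequent. Regions of both HA lists were divided into quintiles by their mean rank of −log10 p. From the weakest quintile to the strongest, the share at a short H3K27me3 peak was 21.6, 23.2, 23.9, 26.2 and 32.9%, with an interval of 31.4 to 34.5% for the last. The share at a long one was 14.9, 12.1, 10.5, 9.45 and 6.71%, with an interval of 5.92 to 7.57% for the last. The share at any H3K27me3 peak ran from 34.1% in the third quintile to 39.3% in the strongest. The share with an IgG peak was 1.12% in the weakest quintile and 6.54% in the strongest. The median width of the HA regions was 424 bp in the weakest quintile and 708 bp in the strongest, and a wider region can meet more peaks. The parts of IgG and of width in this pattern were not tested.

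**Figure D4:**
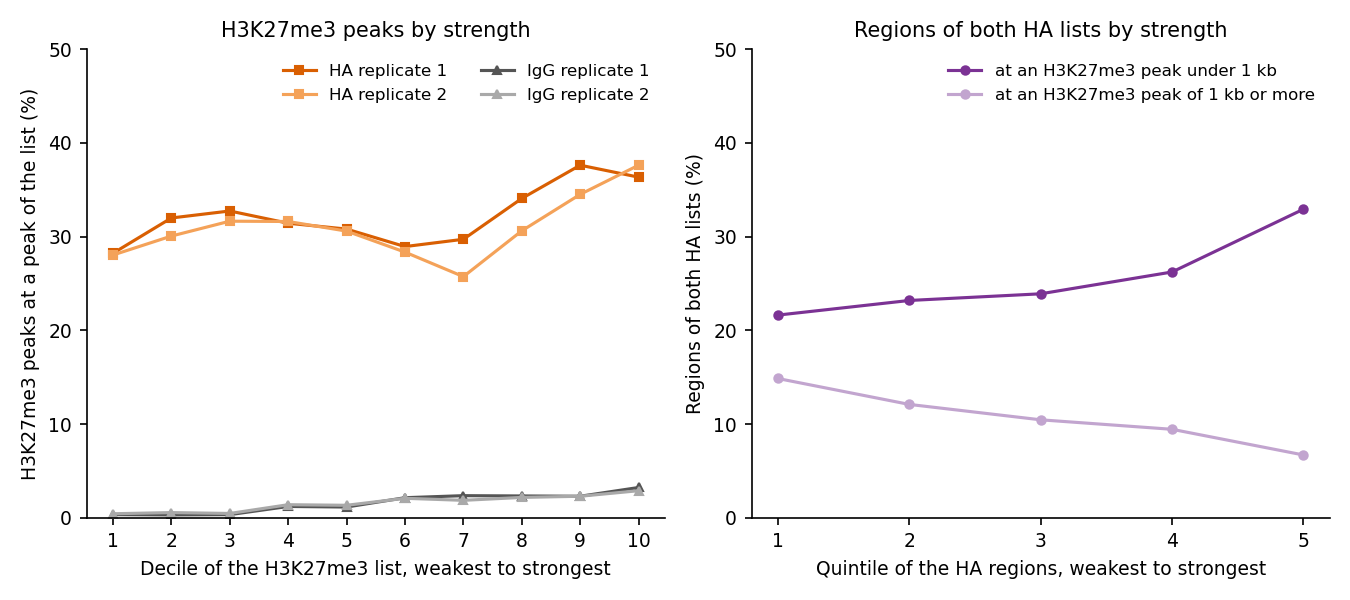
Left, share of H3K27me3 peaks (%) at a peak of each HA and IgG list, in deciles of the H3K27me3 list by −log10 p; right, share of the regions found in both HA lists (%) at a short (under 1 kb) or long H3K27me3 peak, in quintiles by strength of the HA regions. HA shares stay between 25.7 and 37.6% over the deciles, and on the right the share at short peaks is 32.9% and at long peaks 6.71% in the strongest quintile.

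Per Mb, HA summits were denser inside short H3K27me3 peaks than inside long ones. The share of peaks that met an HA peak was not higher among short ones. HA replicates 1 and 2 met 30.9 and 30.3% of the short peaks and 34.9 and 32.1% of the long ones. Both HA lists met 20.9% of the short and 19.9% of the long peaks. Inside short peaks there were 544 and 547 HA summits per Mb and 35.5 and 35.3 IgG summits per Mb. At 20 to 50 kb from their edges the densities were 28.8 and 23.8 for HA and 0.732 and 1.06 for IgG. Inside long peaks there were 212 and 202 HA summits and 10.5 and 8.90 IgG summits per Mb, against 26.8 and 22.4 HA and 0.629 and 0.991 IgG summits at 20 to 50 kb. The density inside over that at 20 to 50 kb was thus 18.9 and 22.9 for HA at short peaks and 7.90 and 9.03 at long ones, and 48.5 and 33.1 for IgG at short peaks and 16.7 and 8.98 at long ones. A summit near several H3K27me3 peaks was counted at each. HA summits thinned out within 1 kb of the edge and were fewest at 2 to 5 kb, with 22.6 and 16.3 per Mb around short peaks and 19.1 and 13.7 around long ones. H3K27me3 summits showed the same dip around peaks of their own list, with 17.4 per Mb at 2 to 5 kb against 32.5 at 20 to 50 kb.

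**Figure D5:**
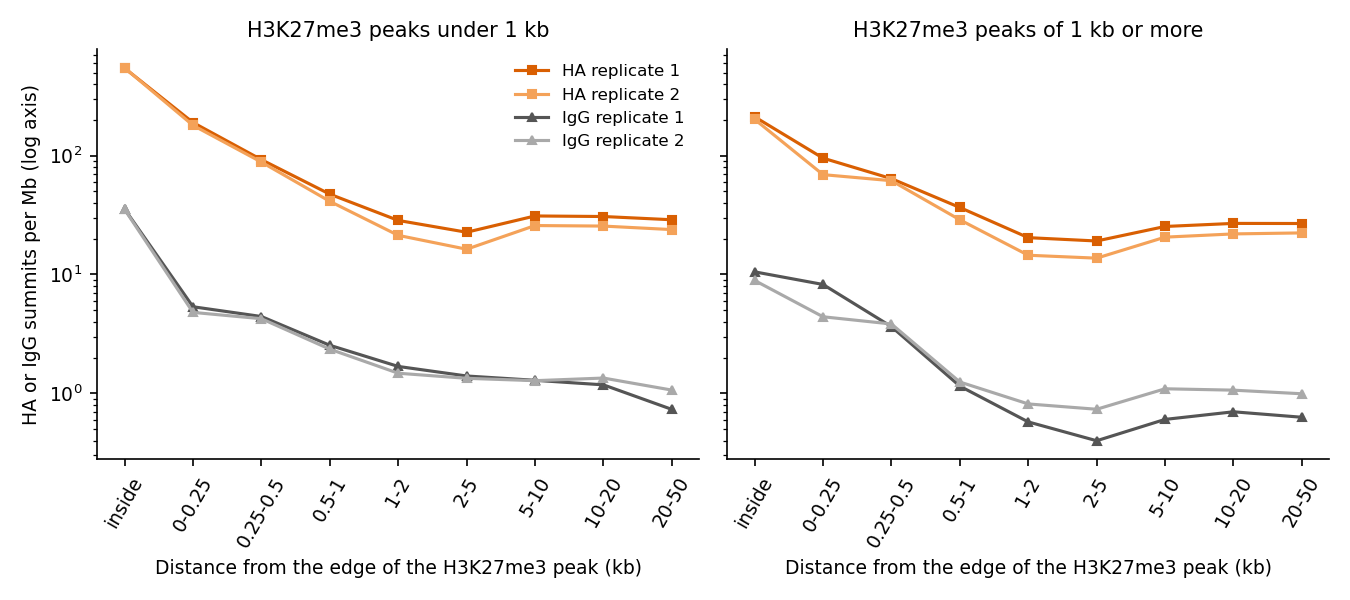
Density of HA and IgG summits (per Mb, log axis) inside H3K27me3 peaks and in distance bins outside their edges (kb), for H3K27me3 peaks under 1 kb (left) and of 1 kb or more (right), chromosomes 1 to 19; 1 line per library. HA density is 544 and 547 per Mb inside short peaks and 212 and 202 inside long ones, and the HA lines are lowest at 2 to 5 kb outside the peak.

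Inside long H3K27me3 peaks the HA summits did not sit at the mark's own summit. With each long peak cut into 5 equal segments, the middle one held 40.02% of the H3K27me3 summits, 18.3 and 19.3% of the HA summits and 20.5 and 20.1% of the IgG summits. The 2 outer segments together held 8.61% of the H3K27me3 summits and 41.0 and 38.9% of the HA summits, which is close to an even spread along the peak. The median distance between an HA summit and the H3K27me3 summit was 436 and 397 bp in long peaks (3547 and 3378 HA summits), and 67 and 66 bp in short ones (4860 and 4883). For IgG summits it was 490.5 and 498 bp in long peaks and 21 and 23 bp in short ones. Peak width limits these distances, and its median was 1515 bp in long peaks and 342 bp in short ones. In short peaks the IgG summits thus lay closest to the H3K27me3 summit, with 36.9 and 38.7% in the middle segment, against 22.2 and 23.1% of the HA summits and 32.1% of the mark's own. The 2 outer segments of short peaks held 34.3 and 33.4% of the HA summits and 17.7% of the mark's own, so HA summits were widely spread there too.

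H3K27me3 peaks at 1 HA list alone were the widest and had the highest pileups, while those at both lists and at none were closer to each other. At both HA lists the median width was 529 bp and the median summit pileup 14 fragments, at 1 HA list 702 bp and 27 fragments, and at none 500.5 bp and 18 fragments. The 10 kb window at the peak, with the peak's own fragments included, held a median of 1.56, 3.00 and 2.21 times the library mean in this order. The median folds were 5.67, 5.72 and 5.27. HA peaks with an H3K27me3 peak were slightly wider than those without, with 361 against 331 bp in replicate 1 and 344 against 305 bp in replicate 2, at equal median pileups of 13 and 11 fragments.

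Regions where the mark and the factor were both strong show how the 2 signals sit together. Of 6372 regions with H3K27me3 and both HA lists and no IgG peak, the best by mean rank was on chromosome 10 (chr10:17897468-17899191). Its H3K27me3 peak of 1722 bp had a pileup of 77 fragments and a fold of 7.51, the authors' enrichment over local background, and its HA peaks had pileups of 54 and 36 and folds of 11.2 and 9.68. The HA summits lay 304 and 334 bp from the H3K27me3 summit. On chromosome 6 (chr6:4086142-4087335) the folds were 12.7 for H3K27me3 and 9.94 and 11.7 for HA, with HA summits 423 and 422 bp away. On chromosome 8 (chr8:70168521-70170066) the folds were 8.05 for H3K27me3 and 11.8 and 10.1 for HA, and the summits lay 684 and 691 bp apart. On chromosome 3 (chr3:90138667-90139919) the mark and the factor shared a summit, within 4 and 9 bp. Among the 10 best regions, HA summits were between 301 and 1241 bp from the mark in the 9 others.

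The strongest H3K27me3 peaks without any peak in the other lists were on chromosome 13 (chr13:22158274-22159182, pileup 94 and fold 12.3; and chr13:54711951-54713632, pileup 97 and fold 10.4). The next were on chromosome 8 (chr8:20143592-20145016, pileup 113 and fold 8.22) and chromosome 3 (chr3:108478904-108480033, pileup 86 and fold 11.9). The strongest regions of both HA lists without H3K27me3 or IgG were on chromosome 10 (chr10:107498232-107499129, HA folds 14.2 and 13.6, pileups 84 and 51), chromosome 5 (chr5:97496383-97497081, folds 13.0 and 16.9) and chromosome 17 (chr17:81861417-81862253, folds 10.96 and 11.5). Strong mark without factor and strong factor without mark were thus both present.

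The strongest peaks of the H3K27me3 list were not particular to it. By −log10 q the first 3 were on chromosome 9 (chr9:35216449-35216975), chromosome 12 (chr12:3159776-3160184) and chromosome 6 (chr6:103625988-103626338), 527, 409 and 351 bp wide, with H3K27me3 pileups of 272, 243 and 206 fragments. At the chromosome 9 peak the pileups were 314 and 304 in the HA libraries and 205 and 292 in the IgG libraries, and at the chromosome 12 peak 256 and 253 for HA and 208 and 252 for IgG. At the chromosome 6 peak they were 227 and 213 for HA and 189 and 214 for IgG. Pileups there were similar with every antibody although depth differed up to 7.51-fold between the libraries. Of the 10 strongest H3K27me3 peaks, 8 had a peak in all 4 other lists, and the last 2 (chr8:19834384-19835670 and chr8:20697614-20699038) had a peak in both HA lists only, with HA pileups of 9 to 22 against 130 and 137 for H3K27me3. The seventh, on chromosome 1 (chr1:194923797-194924541), also favoured the mark, with 88 fragments for H3K27me3, 16 and 10 for HA and 9 and 7 for IgG.

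The widest H3K27me3 peaks were shared with other lists in some cases and not in others. The widest peak of all 5 lists was the same region on chromosome 1 (chr1:24650676-24655217), with 4542 bp for H3K27me3, 4489 and 4470 bp for HA and 4508 and 4478 bp for IgG. Of the next 9 widest H3K27me3 peaks, which were 3459 to 3984 bp wide, 1 had an IgG peak, 5 had a peak in HA replicate 1 or 2 and 4 had none in any other list, against 57.2% with none over all H3K27me3 peaks. Peaks of 2 kb or more, with a median width of 2265.5 bp, met HA replicate 1 in 39.9% and HA replicate 2 in 32.7% of cases. Over the whole list, with a median width of 546 bp, the shares were 32.2 and 30.9%. The 4 wide peaks with none in any other list lay on chromosome 13 (chr13:114593383-114597238), chromosome 16 (chr16:37909906-37913449) and chromosome 4 (chr4:105014676-105018219 and chr4:116412620-116416159), with H3K27me3 pileups of 82 to 111 fragments.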

How the data were processed

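CUT&RUN libraries of the 5 groups above were deposited as narrow peak lists, 1 per library and not pooled. The genome build GRCm39 and the tools MACS2, deepTools and DiffBind are named, without versions, in the submitters' processing notes; an aligner is not given in the sources used here. As deposited by the authors, a line holds the interval, the summit offset, a score, a fold enrichment (a ratio to local background), the −log10 p-value and the −log10 q-value of the summit. Scores describe and rank peaks within their own list only.

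Whole summit pileups and expected pileups were recovered from the fold and the −log10 p-value (100% of peaks within 0.002), and the lowest expected pileup gave fragments per 10 kb. The other expected pileups under 2 were whole fragments in 10 kb windows, within 0.05, in 100% of cases. The recovery was tested on simulated data. Overlap meant at least 1 shared bp, and domains joined gaps of up to 3 kb. Chromosome lengths are the spans up to the last peak of any list. Python 3.11.15, numpy 2.4.6, pandas 2.3.3, scipy 1.17.1 and matplotlib 3.10.9 were used. Counts of peaks were compared between HA and IgG by an exact permutation test. Alternatives were other q thresholds, lists of equal length, depth scaling, joining distances, overlap rules, a replicate block and leaving out replicates.

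The HA and IgG libraries of a number are paired by shared nuclei, per the labels' protocols; replicate 1 had the longer HA list and the shorter IgG list. Named regions follow a rule: the 10 longest H3K27me3 domains, the 10 strongest H3K27me3 peaks, the 10 best regions of mark and both HA lists, and the 10 longest HA regions. The widest peaks, the windows and the peaks of 1 list alone were added to it after values were seen. The members, lists and tests were chosen with earlier results of these data known. Gene names, promoters and sequences were not used here, so the parts of the rule that name genes were not applied, as the annotation at hand is of another genome build.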

Additional observations from a re-analysis of the deposited data

Results flagged for a closer look

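The sex chromosomes lie outside the comparisons, and the H3K27me3 list has peaks there. It held 831 peaks on chromosome X, against 628 and 519 in the HA lists and 38 and 73 in the IgG lists, the control libraries. Per Mb, chromosome X had 0.377 times the autosomal density for H3K27me3, 0.242 and 0.240 times for HA and 0.613 and 0.646 times for IgG. H3K27me3 peaks on chromosome X had a median width of 776 bp, and 41.2% of them were 1 kb or wider, against 32.5% on the autosomes. On chromosome Y there were 20 H3K27me3 peaks, 15 and 10 HA peaks and 11 and 3 IgG peaks. With 1 H3K27me3 library these differences were not tested.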

How the results depend on the processing

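The HA and IgG difference in peak number (mean log2 4.82) kept its direction in every alternative run. It was 1.90 with HA scaled to IgG depth, 5.13 with −log10 q of at least 5, and 4.39 to 5.26 with 1 library left out. As a replicate block it was 4.82 with an exact sign-flip p of 0.5, the smallest 2 pairs allow. With −log10 q of at least 5, the median H3K27me3 width was 899 bp, the median gap 30.7 kb (44.1 and 69.6 kb for HA), the share of H3K27me3 peaks at both HA lists 9.40% and the share of HA regions at the mark 25.1% (15.1% at 10 or more). With lists of equal length these were 562 bp, 22.1 kb (28.4 and 28.5 kb for HA), 18.7% and 35.1%. With at least 50% of the shorter peak shared, the 2 shares were 17.2 and 32.7%, and with IgG peaks left out 19.6 and 34.6%. With 1 HA library in place of both they ran from 30.9 to 32.2% and from 27.8 to 32.2%. Alternatives added after seeing the data, scaling to the shallower HA library and HA summits inside the H3K27me3 peak in both lists, gave a width of 564 bp, a gap of 22.1 kb and a share of 14.5%. Domains of at least 10 kb, 4 as reported, numbered 2 at −log10 q of at least 10, and 0, 1819, 4816 and 4382 with joining distances of 1, 10, 25 and 50 kb, the last 2 added after seeing the data. At these last 2 distances the HA lists had more such domains, with 6295 and 5199 at 25 kb and 5684 and 5379 at 50 kb. Fewer peaks enter under the stricter thresholds; other causes were not tested. The chromosome 11 to 14 ratio ran from 2.20 to 2.31. Depth limits the IgG lists most, and the alternatives on promoters were not run.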

Other observations

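The longest regions of both HA lists were mixed in their relation to the mark. The 2 longest after the chromosome 1 region described above lay on chromosome 14 (chr14:3050133-3053965, 3833 bp) and chromosome 17 (chr17:40153920-40156477, 2558 bp), and both had peaks in the H3K27me3 list and in both IgG lists. The first of the 10 without an IgG peak was on chromosome 7 (chr7:29707505-29709722, 2218 bp), with HA pileups of 88 and 63 fragments beside an H3K27me3 peak of 280 bp and 9 fragments. The next 4, on chromosome 12 (chr12:112991133-112993237 and chr12:25239050-25240958), chromosome 4 (chr4:117174170-117176134) and chromosome 1 (chr1:151676785-151678649), had neither H3K27me3 nor IgG peaks.

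The longest stretches without H3K27me3 peaks also held few HA peaks, against 15.8 and 13.1 HA peaks per Mb over the autosomes (replicates 1 and 2). The longest, 5.46 Mb on chromosome 1 (chr1:111792949-117250452), held 10 and 1 HA peaks and 1 and 5 IgG peaks. The second, 4.81 Mb on the same chromosome (chr1:24718546-29524847), held 7 and 3 HA peaks. The third, 4.14 Mb on chromosome 8 (chr8:96615296-100757055), held 1 and 0 HA peaks and no IgG peak.

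Merged over all 5 lists, the peaks formed 69072 regions. H3K27me3 alone made up 26.6% of them and both HA lists without the mark or IgG 16.8%. The regions of H3K27me3, both HA lists and no IgG made up 9.23%, and 246 regions had a peak in all 5 lists.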
